A study of Drosophila melanogaster with 6 samples.

Results

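The juvenile hormone genes described here were the hormone's receptors Met and gce, the receptor target Kr-h1, the hormone esterase gene Jhe and the epoxide hydrolase genes Jheh1, Jheh2 and Jheh3. They were taken by symbol, and the 7 symbols were all found among the 17807 genes of the deposited table. The 7 genes also passed the filter on low values, which asked for 10 or more normalized counts on average across libraries and left 10969 genes for testing. A normalized count is the number of reads assigned to a gene, divided by 1 size factor per library.

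RNA was sequenced from muscle-enriched lysates of Drosophila melanogaster larvae in the last instar, in 3 libraries per genotype. Control animals were UAS-dcr2;;Dmef2-Gal4>UAS-mCherryRNAi and knockdown animals were UAS-dcr2;;Dmef2-Gal4>UAS-tmodRNAi, called mCherryRNAi and tmodRNAi here. Both genotypes thus carried the muscle driver Mef2-Gal4 and the Dicer-2 transgene that strengthens RNA interference, and they differed in the hairpin, which targeted either tropomodulin, a cap of actin filament pointed ends, or a fluorescent protein that flies lack. Each library pooled 7 to 10 larvae grown for about 90 h. The tissue labels say adult, whereas the growth conditions and the title name larvae. The driver acts in muscle, while the lysate also holds other tissues, so a gene's value here is a sum over several cell types. In such a lysate, fewer cells of a type and less RNA per cell cannot be told apart.

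Juvenile hormone is a sesquiterpenoid made by the corpora allata, which in fly larvae are part of the ring gland. It binds Met and gce, paired transcription factors of the bHLH-PAS family that act with the coactivator Taiman, and the receptor complex induces Kr-h1, a zinc finger protein that holds back metamorphosis. The hormone is broken down by an esterase that cuts its methyl ester and by epoxide hydrolases that open its epoxide ring. The steroid ecdysone, whose pulses drive moulting and metamorphosis, acts together with it, so the balance of these hormones sets developmental stage.

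The libraries held between 83824273 and 110151028 recovered reads. tmod itself fell to 17.1% of its control mean (adjusted p = 0.0045, limma with Benjamini-Hochberg adjustment over all tested genes) and was below every control in each of the 3 tmodRNAi libraries. The mCherryRNAi replicate 1 library stood closer to the tmodRNAi libraries than the other controls did for many genes, and its value is given beside the results on the 7 genes. The 12 muscle markers were all detected, with a summed level of 1782180 to 5322530 normalized counts in the controls and 7866870 to 8973970 in tmodRNAi, and 8 of them passed the threshold as higher. Markers of other tissues were present too. The 9 fat body markers summed to between 236363 and 319761 in the controls and between 417487 and 1106450 in tmodRNAi, with 5 past the threshold as higher. The 8 neuron markers summed to between 4221 and 5986 in the controls and between 6638 and 11331 in tmodRNAi. The 8 hemocyte markers summed to between 146313 and 194041 and between 218283 and 288243, respectively, but they moved in both directions, with 2 past the threshold as higher and 2 as lower. Epidermis and cuticle markers summed to between 5516560 and 14528200 in the controls and between 10304400 and 12468200 in tmodRNAi, with 1 past the threshold as lower. The 6 tracheal markers summed to between 121950 and 206573 and between 237071 and 243812, although 0 passed in limma (3 at an unadjusted p under 0.05, with 2 higher and 1 lower) and their median log2 difference was -0.24. Gut markers stayed at or under 579 normalized counts and salivary gland markers at or under 3492 in every library. Of all tested genes, 10.9% passed as higher and 12.9% as lower. The part of these tissues in the results below was not tested.

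Kr-h1, the hormone's principal target, fell in tmodRNAi. Jhe, the esterase gene, fell as well, from a low level to a few reads per library. The hydrolase genes Jheh1 and Jheh2 rose. The receptor genes Met and gce did not pass the threshold, and neither did Jheh3. The threshold was an adjusted p-value under 0.05 in limma on log2(normalized count + 1). Thus 4 of the 7 genes passed it, 2 as higher and 2 as lower, where 23.8% of all tested genes passed, 10.9% as higher and 12.9% as lower. The members' share was 57.1%, over a set of 7 genes chosen with earlier results of these data known. Of the lower genes, Jhe met the filter on low values only through the controls (means of 28.6 in mCherryRNAi and 2.83 in tmodRNAi). Its call as lower is therefore not independent of the filter. The groups did not overlap for 6 of the 7 genes, 4 higher and 2 lower in tmodRNAi, against 51.4% of all tested genes, 25% higher and 26.4% lower. The median log2 difference was 0.22 over the 7 genes and 0.02 over all tested genes, and the median size of the difference without its sign was 0.69 and 0.37.

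These calls were close to the threshold and depended on which libraries were used. Of the 2613 genes that passed in all, 2584 had an adjusted p-value between 0.03 and 0.05. None of the 4 members passed when any library other than mCherryRNAi replicate 1 was left out (limma, adjusted p between 0.061 and 0.16 in those 5 fits), and without mCherryRNAi replicate 1 there were 6 members past the threshold, all but Met. With 3 libraries against 3, the exact two-sided permutation test cannot go below 0.1, and it gave 0.1 for each of the 6 genes whose groups did not overlap.

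**Figure D1:**
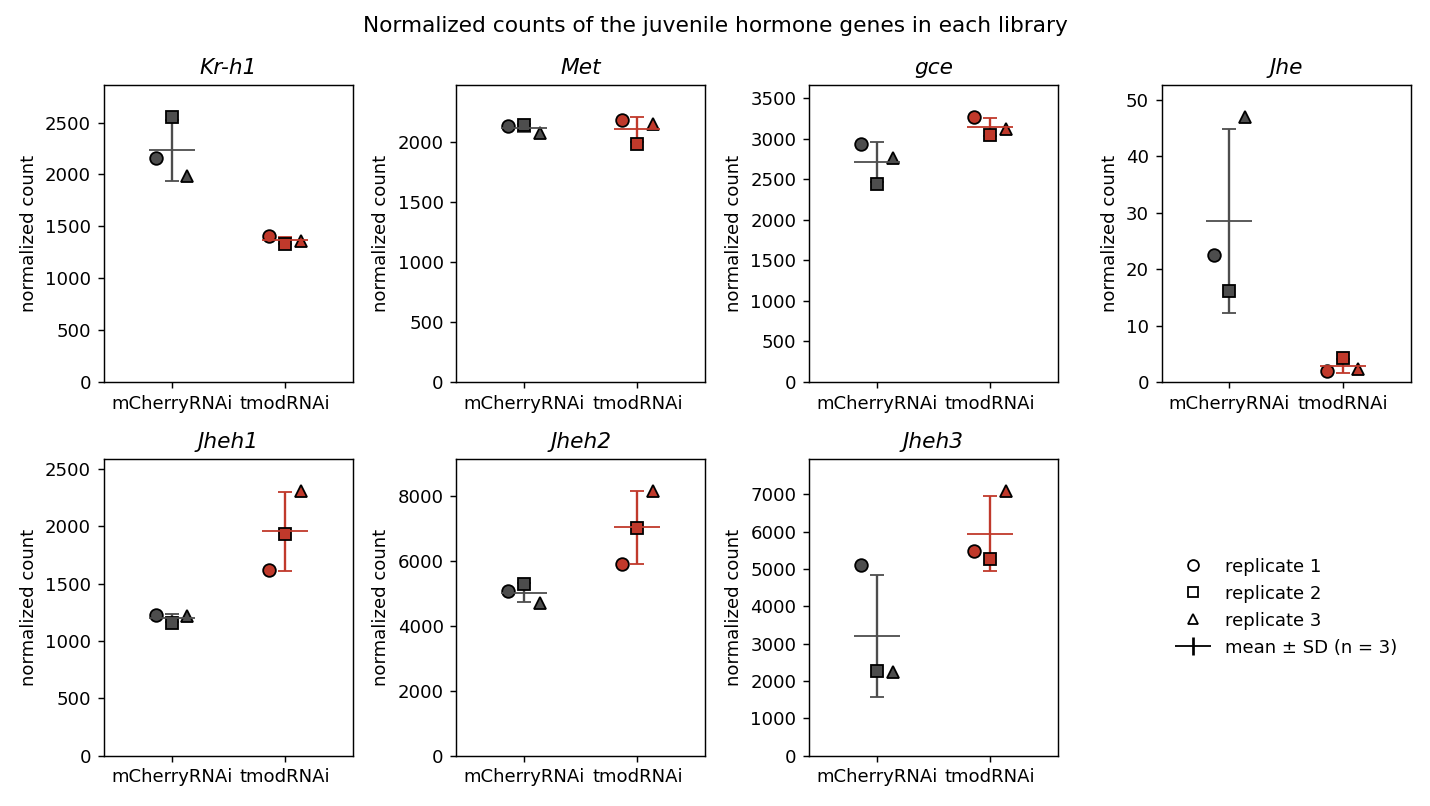
Normalized counts (vertical axes, linear from 0) of the 7 juvenile hormone genes in the 3 mCherryRNAi libraries (grey) and the 3 tmodRNAi libraries (red). Symbols mark the replicate number, and bars give the mean ± SD (n = 3). The groups overlap only for Met. The mCherryRNAi replicate 1 point of Jheh3, at 5096, lies far above the other controls and just under the tmodRNAi points.

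The receptors were examined first. Met (FBgn0002723) lies on the plus strand of chromosome X, 11616124 to 11621280 in the BDGP6.54 annotation, whose coordinates are those of dm6. The controls had 2128, 2142 and 2073 normalized counts (replicates 1 to 3) and, in the same order, 2182, 1986 and 2146 in tmodRNAi. The 6 libraries thus lay within a narrow band, and the groups overlapped. The log2 difference was -0.01 (95% interval -0.18 to 0.16, adjusted p = 0.94, limma). The sign of the difference turned with quantile normalization, with edgeR and without mCherryRNAi replicate 2 or tmodRNAi replicate 2.

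gce (germ cell-expressed, FBgn0261703) is the paralogue of Met and lies on the plus strand of chromosome X, 15297766 to 15319074. It had 2933, 2442 and 2761 normalized counts in the controls and 3271, 3042 and 3120 in tmodRNAi. Each tmodRNAi library was above each control, by a small margin over mCherryRNAi replicate 1. The mean was 2712 ± 249 in mCherryRNAi and 3144 ± 117 in tmodRNAi (SD, n = 3 each). The log2 difference of 0.22 did not pass the threshold (95% interval -0.0021 to 0.44, adjusted p = 0.11, limma). With mCherryRNAi replicate 1 left out it passed, at 0.28 (adjusted p = 0.036).

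Because the receptor genes were measured in the same libraries, their ratio does not depend on the scaling. The log2 ratio of gce to Met counts was 0.46, 0.19 and 0.41 in the controls and 0.58, 0.62 and 0.54 in tmodRNAi. The ratio was higher in every tmodRNAi library than in every control, with means of 0.36 ± 0.15 and 0.58 ± 0.04 (SD, n = 3 each). The exact two-sided permutation p was 0.1, the smallest possible. Summed, Met and gce had 4826 ± 239 and 5249 ± 213 normalized counts, and the groups overlapped (exact permutation p = 0.2). These ratios and sums were chosen after the values were seen.

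Kr-h1 (Kruppel homolog 1, FBgn0266450) lies on the plus strand of chromosome 2L, 6082603 to 6096498. Controls 1 to 3 had 2158, 2556 and 1983 normalized counts, and tmodRNAi libraries 1 to 3 had 1403, 1331 and 1359. Every tmodRNAi library was below every control, and the tmodRNAi libraries lay close together, with a coefficient of variation of 2.67% against 13.2% in the controls. The mean fell from 2232 ± 294 to 1364 ± 36.5 (SD, n = 3 each), to 61.1% of the control. The log2 difference was -0.70 (SE 0.11, 95% interval -0.97 to -0.44, adjusted p = 0.031, limma). It ranged from -0.78 to -0.60 in the 6 fits that each left out 1 library, of which 1 passed the threshold.

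Kr-h1 was also set against its receptor gene Met in the same libraries. Met was nearly level, so this ratio largely restates the Kr-h1 values. The log2 ratio of Kr-h1 to Met counts was 0.02, 0.26 and -0.06 in the controls and -0.64, -0.58 and -0.66 in tmodRNAi. In all 3 tmodRNAi libraries the ratio was thus below that of every control, and it varied little among them (exact two-sided permutation p = 0.1, the smallest possible). The counts were not divided by length here, so the ratio does not say which gene had the higher level. Unlike many genes, Kr-h1 did not separate the controls in the way mCherryRNAi replicate 1 otherwise stood apart: that library lay between the other controls. Against it alone the tmodRNAi mean was lower by a log2 difference of -0.66, or 0.94 of the difference from all controls. The median of this share was 0.65 over the 2613 genes that passed. A comparison with 1 library has no replicate check.

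What the Kr-h1 value measures depends on how reads over shared exons were counted. In the annotation 78.6% of the exonic bases of Kr-h1, 4168 of 5306, also belong to CG45075 on the same strand, and CG45075 was listed at 0 in the 6 libraries. Across the table, 324 of 327 protein-coding genes whose exons lay at least 99% within exons of other listed genes on the same strand were at 0 in every library. The same held for 66 of 68 genes covered to that extent by genes on the opposite strand, whereas 3.95% of 9319 genes without any exonic overlap were at 0. In this table, therefore, genes without exonic bases of their own almost always had no reads, whichever strand the overlapping gene was on. Kr-h1 has 1138 exonic bases that no other listed gene covers. They lie at its 5′ end and belong to the transcript Kr-h1-RA, while Kr-h1-RB has 0 such bases. If reads on shared bases were left out for Kr-h1 too, its value reports the RA transcript and would miss RB.

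**Figure D2:**
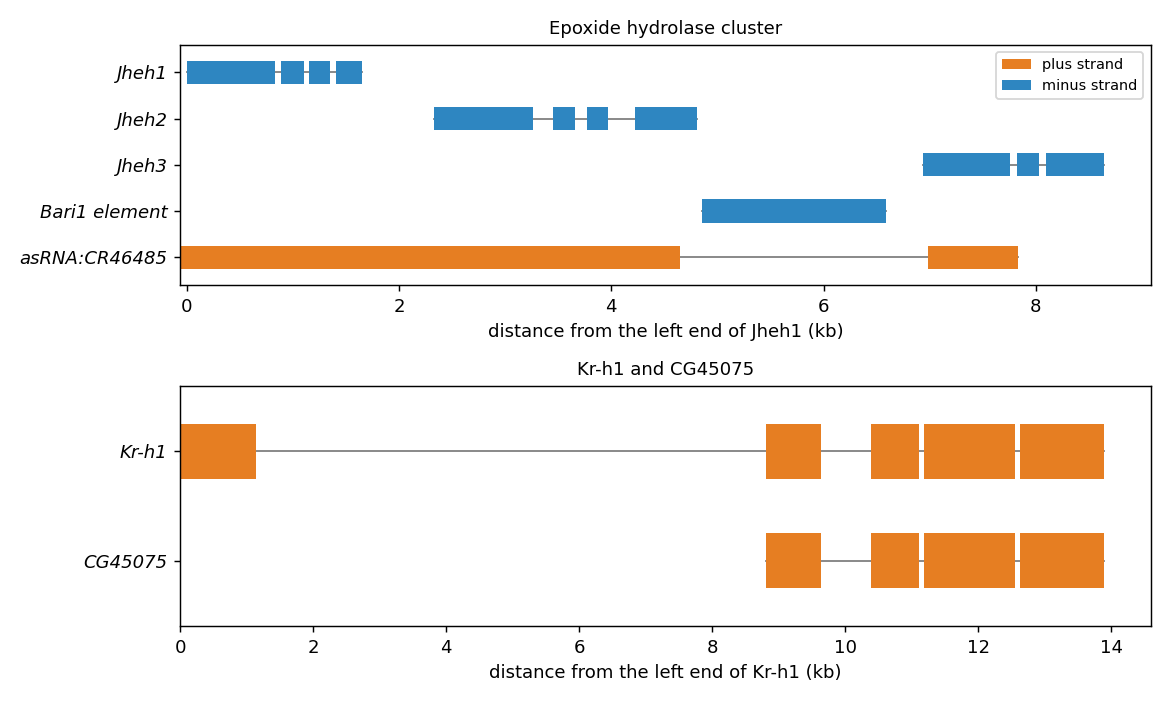
Exonic blocks of the epoxide hydrolase cluster (top) and of Kr-h1 with CG45075 (bottom), by distance in kb along the chromosome from the left end of Jheh1 or Kr-h1. Orange blocks are on the plus strand and blue blocks on the minus strand. The antisense RNA CR46485 covers Jheh1 wholly, and CG45075 covers all Kr-h1 blocks but the leftmost.

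The same holds in part for gce, with 40.7% of its exonic bases (2364 of 5809) shared with 2 antisense RNAs. These had a mean of 80.9 ± 25.3 (asRNA:CR44429) and 10.1 ± 5.31 normalized counts (asRNA:CR44961) in the controls, and 64.4 ± 4.05 and 10.9 ± 3.67 in tmodRNAi (SD, n = 3 each). Neither passed the threshold (adjusted p = 0.45 and 0.81, limma). Met, Jhe and the 3 hydrolase genes share no exonic base with another listed gene.

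Of the breakdown enzymes, Jhe (juvenile hormone esterase, FBgn0010052) was the lowest. The gene lies on the plus strand of chromosome 2R, 16119793 to 16122773. It had 22.5, 16.1 and 47.0 normalized counts in the controls, from 23, 20 and 44 reads. In tmodRNAi it had 2.02, 4.26 and 2.21, from 2, 4 and 2 reads. Every tmodRNAi library was below every control, and 2 of them were under the floor of 3 reads. Only through the controls did Jhe reach the filter on low values. The group sums of 87 and 8 reads, corrected for library size, gave a ratio of 0.104 (exact 95% interval 0.0434 to 0.214, which covers counting error only). On the log2(normalized count + 1) scale, which understates changes of such low genes, the difference was -2.86 (SE 0.56, adjusted p = 0.031, limma). It ranged from -1.51 with a pseudocount of 10 to -4.03 with quantile normalization, so its size is uncertain. Against mCherryRNAi replicate 1 alone the log2 difference was -2.67, which was 0.93 of the whole.

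Jhedup, a duplicate of the esterase gene, is the left neighbour of Jhe at a distance of 643 bases. It had 1.96, 17.7 and 25.7 normalized counts in the controls and 6.06, 4.26 and 8.82 in tmodRNAi. The groups overlapped, since mCherryRNAi replicate 1 was the lowest library (log2 difference -0.67, adjusted p = 0.60, limma). Reads of similar copies may be divided between them. CG30095 on the other side of Jhe did not exceed 7 reads in any library.

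Jheh1, Jheh2 and Jheh3 (FBgn0010053, FBgn0034405 and FBgn0034406) encode epoxide hydrolases and lie next to each other on the minus strand of chromosome 2R, at 18853434 to 18855087, 18855767 to 18858245 and 18860375 to 18862078. In the annotation a Bari1 transposable element sits between Jheh2 and Jheh3, 45 bases from the former and 355 bases from the latter. Whether these stocks carry the element was not analysed here.

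Jheh1 had 1229, 1160 and 1218 normalized counts in the controls and 1617, 1936 and 2312 in tmodRNAi. The controls were nearly equal, the tmodRNAi libraries were spread, and the groups were well apart. The mean rose from 1202 ± 37.0 to 1955 ± 348 (SD, n = 3 each), to 163% of the control. The log2 difference was 0.69 (SE 0.14, 95% interval 0.35 to 1.02, adjusted p = 0.031, limma). With limma's prior not trended on the mean, Jheh1 missed the threshold (adjusted p = 0.051).

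Jheh2 had 5087, 5282 and 4701 normalized counts in the controls and 5903, 7025 and 8167 in tmodRNAi. Here too every tmodRNAi library was above every control. The mean rose from 5023 ± 296 to 7032 ± 1132 (SD, n = 3 each), to 140% of the control. The log2 difference was 0.47 (SE 0.13, 95% interval 0.16 to 0.79, adjusted p = 0.048, limma), and it missed the threshold when all genes were kept (adjusted p = 0.054) or the prior was not trended (0.072). For both Jheh1 and Jheh2, mCherryRNAi replicate 1 was level with the other controls, and the differences from it alone were 0.95 and 0.96 of the whole.

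Jheh3 differed from its neighbours in this respect. Controls 1 to 3 had 5096, 2265 and 2250 normalized counts, and tmodRNAi libraries 1 to 3 had 5473, 5262 and 7100. The mCherryRNAi replicate 1 value exceeded the other controls by 1.17 on the log2 scale and came close to the tmodRNAi range. The mean was 3204 ± 1639 in mCherryRNAi and 5945 ± 1006 in tmodRNAi (SD, n = 3 each). The log2 difference of 0.99 (95% interval 0.16 to 1.82) fell short of the threshold (limma, adjusted p = 0.076). Without mCherryRNAi replicate 1 it was 1.38 (adjusted p = 0.00076), and in DESeq2 with all libraries it was 0.90 (adjusted p = 0.044). The difference from mCherryRNAi replicate 1 alone was 0.21 on the log2 scale.

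**Figure D3:**
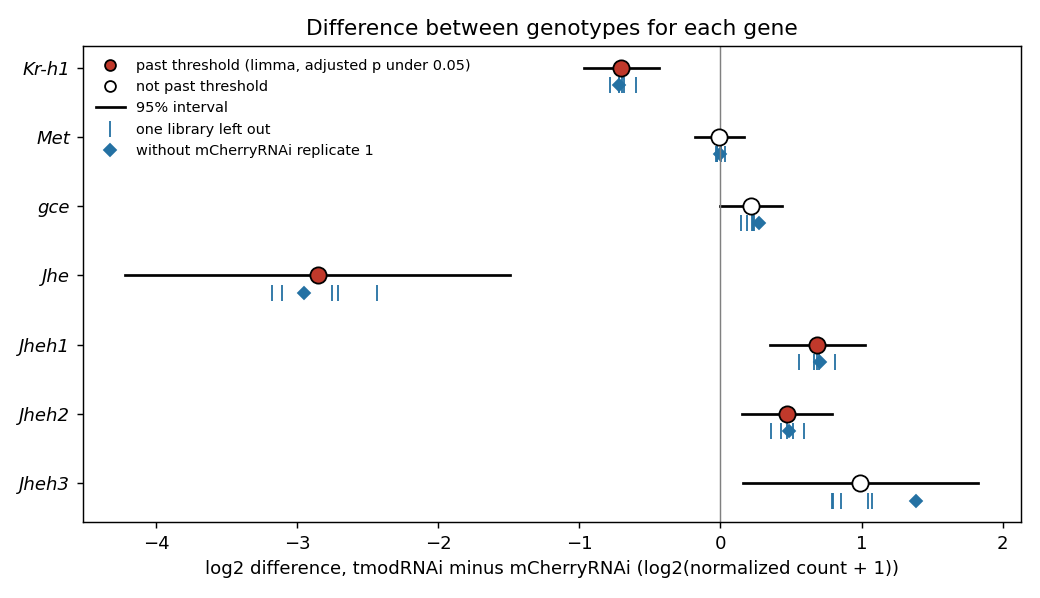
Log2 difference (tmodRNAi minus mCherryRNAi, horizontal axis) of each gene, with its 95% interval from limma; red points passed the threshold and white points did not. Blue marks below each point are the values with 1 library left out, with a diamond for mCherryRNAi replicate 1. Leaving out that library moves Jheh3 most among the hydrolase genes, to 1.38.

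Because the hydrolase genes are similar neighbours, their reads may be divided unevenly, and a sum does not depend on that division. Reads left out because they match several copies would be missing from the sum too, and whether any were is not known. Summed, they had 11412, 8708 and 8169 normalized counts in the controls and 12993, 14223 and 17579 in tmodRNAi. The groups did not overlap, with means of 9430 ± 1738 and 14932 ± 2373 (SD, n = 3 each). The log2 difference of the sum was 0.67 (exact two-sided permutation p = 0.1, the smallest possible). Counted per kb of exon, Jheh3 took 48.3%, 29.0% and 30.5% of the 3 genes' level in the controls and 45.5%, 40.3% and 43.7% in tmodRNAi. The control share was thus highest in replicate 1, and the groups overlapped (exact permutation p = 0.4). Jheh1 took 15.2% ± 2.61 in the controls and 15.0% ± 0.725 in tmodRNAi (SD, n = 3 each).

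An annotated antisense RNA on the plus strand, asRNA:CR46485, covers 100% of the exonic bases of Jheh1, 91.6% of those of Jheh2 and 49.5% of those of Jheh3. It is not a row of the deposited table. Since the counts were not separated by strand for the genes examined above, reads from it and from the hydrolase genes cannot be told apart. CG18190, the left neighbour of the cluster, had a control mean of 219 ± 70.5 normalized counts and a tmodRNAi mean of 191 ± 30.0 (SD, n = 3 each), with overlapping groups (limma, adjusted p = 0.66). The summed fat body and muscle markers, given above, were higher in tmodRNAi as well. In mCherryRNAi replicates 1 to 3 the muscle sums were 5322530, 1782180 and 2299240, and the fat body sums were 236363, 319761 and 299506. The part of either tissue in the hydrolase result was not tested.

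Levels can be compared between genes only per length. Per kb of exonic bases that no other listed gene covers, the controls had 2608 ± 153 normalized counts for Jheh2, 2033 ± 1040 for Jheh3 and 1961 ± 258 for Kr-h1. Next came Jheh1 with 809 ± 24.9, gce with 787 ± 72.3, Met with 416 ± 7.17 and Jhe with 13.6 ± 7.77 (SD, n = 3 each). Within this order Jheh3 could not be separated from Jheh2 or Kr-h1, nor Jheh1 from gce, beyond their spread. In tmodRNAi the values were 3772 ± 638 for Jheh3, 3651 ± 588 for Jheh2, 1316 ± 234 for Jheh1, 1199 ± 32.1 for Kr-h1, 913 ± 33.8 for gce, 414 ± 20.5 for Met and 1.35 ± 0.592 for Jhe. There Jheh3 and Jheh2, and Jheh1 and Kr-h1, could not be separated. With the full exonic length in place of the unshared bases, Kr-h1 had 421 ± 55.3 in the controls and 257 ± 6.88 in tmodRNAi, so its place depends on the counting of shared exons. The same is true of gce, which by full length had 467 ± 42.9 and 541 ± 20.1, nearer to Met and below Jheh1.

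The pattern over libraries was compared with that of the 9198 other tested genes averaging 50 or more normalized counts (9199 for Jhe, itself below that mean). Likeness was the root-mean-square difference of log2 values, each gene centred over the 6 libraries. Nearest to Kr-h1 were CG17036, CG34398 and CG13654, at 0.07, 0.08 and 0.09, with log2 differences of -0.81, -0.63 and -0.66. For Jheh1 they were Elal, CG32032 and Atet (0.08, 0.08 and 0.09), and for Jheh2 rempA, CG33108 and Cap-D2 (0.05, 0.07 and 0.08). Jheh3 was nearest to Corp, CG3604 and CG7920 (0.08, 0.10 and 0.10). The nearest to Met were PpV, CG31342 and Upf2 and to gce CalpB, sqd and mRpL9, all at or under 0.03, but 1263 and 636 genes, respectively, lay within 0.1 of these flat patterns, against 5 for Kr-h1. No gene came within 0.5 of Jhe, whose nearest were CR43377, CG1358 and CG12655.

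Genes that make the hormone were compared next. Of 11 such genes, 9 were tested, and their median log2 difference was -0.14. As higher 1 passed and as lower 1, against 10.9% and 12.9% of all tested genes. qm, the geranylgeranyl diphosphate synthase on a side branch of the pathway, fell from 5024 ± 884 to 3211 ± 274 normalized counts (SD, n = 3 each, log2 difference -0.63, adjusted p = 0.038, limma). CG10527, which resembles a farnesoic acid methyltransferase, rose from 9289 ± 1303 to 12636 ± 657 (log2 difference 0.45, adjusted p = 0.042). In mCherryRNAi replicate 1 both genes lay on the tmodRNAi side of the other controls, qm at 4003 against 5501 and 5566, and CG10527 at 10760 against 8281 and 8825. Most of these enzymes serve other lipids in every tissue. The enzyme that defines the corpora allata is jhamt, the juvenile hormone acid methyltransferase. It was too low to be tested, with 3.92, 22.5 and 13.9 normalized counts in the controls and 2.02, 4.26 and 4.41 in tmodRNAi. Its mCherryRNAi replicate 1 value lay within the tmodRNAi range, and the most reads in any library were 28.

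Partners and chaperones of the receptors were tested as well. Of 7 genes, 2 passed as higher and 0 as lower by limma, against 10.9% and 12.9% of all tested genes. Their median log2 difference was 0.10. The groups did not overlap for 5 of the 7, some higher and some lower in tmodRNAi, against 51.4% of all tested genes. Fkbp39, an immunophilin reported to bind hormone response elements, rose from 4036 ± 196 to 5057 ± 66.0 normalized counts (log2 difference 0.33, adjusted p = 0.032). ftz-f1, a nuclear receptor that interacts with Met and gce, rose from 677 ± 340 to 1426 ± 57.6 (log2 difference 1.18, adjusted p = 0.047). In mCherryRNAi replicate 1 ftz-f1 was at 1068 against 451 and 511 in the other controls. The coactivator tai had 15035, 28522 and 27248 normalized counts in the controls and 13966, 12410 and 12426 in tmodRNAi. Here mCherryRNAi replicate 1 was near the tmodRNAi values, and the log2 difference of -0.81 did not pass (adjusted p = 0.062); tai was named after its values were seen.

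Among genes reported to be induced by the hormone or to bind it, 8 of 10 were tested, with 0 past the threshold as higher and 1 as lower by limma, and a median log2 difference of -0.28. The 1 gene was br, or broad, a transcription factor of the larval to pupal transition that is also an ecdysone target. It fell from 218335 ± 99333 to 66688 ± 17367 normalized counts (log2 difference -1.61, adjusted p = 0.045). Its mCherryRNAi replicate 1 value was 104068 against 284092 and 266846 in the other controls. The takeout gene to, which encodes a protein related to hormone-binding proteins, had 236, 15.3 and 87.7 normalized counts in the controls and 403, 460 and 759 in tmodRNAi. The log2 difference of 2.90 did not pass (adjusted p = 0.069). JhI-26, listed as hormone-induced, had 573, 201 and 280 normalized counts in the controls and 661, 607 and 723 in tmodRNAi. Its log2 difference of 1.05 did not pass either (adjusted p = 0.083, limma). The remaining tested genes, mnd, h, Jhedup, Jhebp29 and Eip93F, had negative differences and overlapping groups. Eip93F had the lowest log2 difference of the list, at -2.38 (adjusted p = 0.25, limma). The median is therefore not that of hormone-induced or hormone-binding genes alone. Apart from br and Jhedup, the genes in this paragraph were named after their values were seen.

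Peptides and receptors that regulate the corpora allata in other insects were low in part. Of 9 genes, 8 were tested, with 1 past the threshold as higher and 1 as lower, against 10.9% and 12.9% of all tested genes. AstC, an allatostatin gene, rose from 14.6 ± 9.48 to 42.3 ± 1.35 normalized counts (log2 difference 1.64, adjusted p = 0.049, limma). AstA-R2, a receptor of allatostatin A, fell from 3200 ± 908 to 1357 ± 241 (log2 difference -1.21, adjusted p = 0.033). Control replicate 1 again lay toward tmodRNAi, with AstC at 25.5 against 9.65 and 8.55 and AstA-R2 at 2152 against 3740 and 3708. Relatives of Jhe in the carboxylesterase family changed in both directions. Past the threshold were 3 of 19 tested genes as higher and 5 as lower, against 10.9% and 12.9% of all tested genes. alpha-Est1 rose (log2 difference 1.41), and alpha-Est4, alpha-Est5 and Ace, the acetylcholinesterase gene, fell (-0.88, -0.55 and -0.64, adjusted p = 0.031 each). alpha-Est1 was at 478 in mCherryRNAi replicate 1 against 290 and 245 in the other controls. That library also lay toward tmodRNAi for alpha-Est5 (1281 against 1529 and 1537) and Ace (2526 against 2816 and 3345). For alpha-Est4 it lay the other way (209 against 167 and 166).

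**Figure D4:**
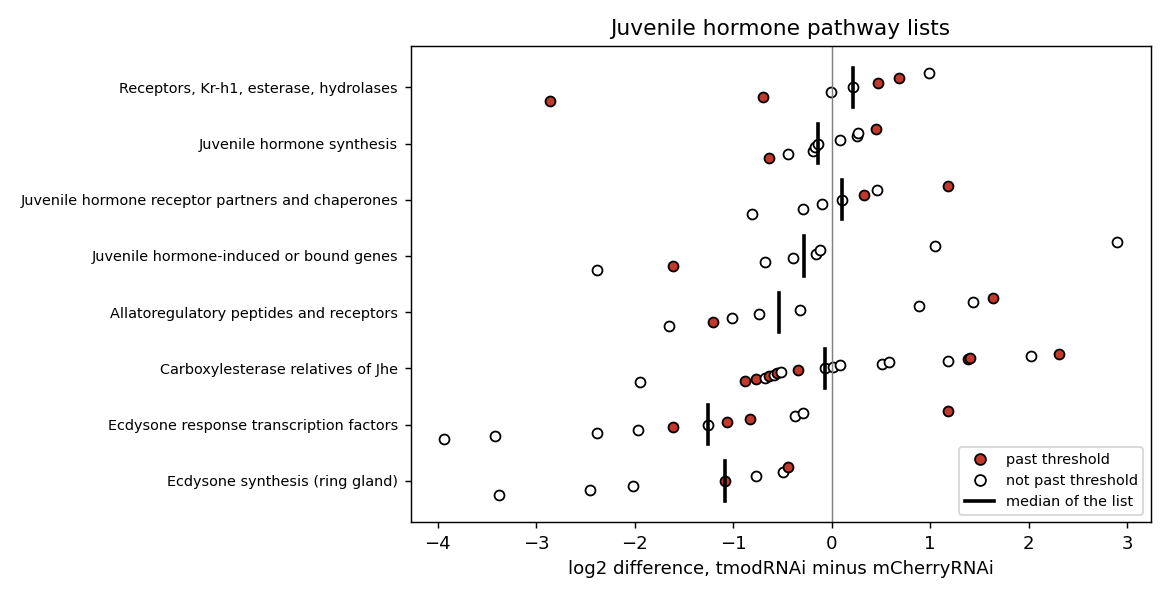
Log2 difference (tmodRNAi minus mCherryRNAi, horizontal axis) of each tested gene in the juvenile hormone and ecdysone lists, 1 row of points per list. Red points passed the threshold, white points did not, and the black bar is the median of the list, which is -0.14 for hormone synthesis and -1.25 for the ecdysone response.

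Ecdysone response genes were set beside these, since the hormones act together. Of 11 transcription factors of that response, 1 passed as higher and 3 as lower, with a median log2 difference of -1.25. Over all tested genes, 10.9% passed as higher and 12.9% as lower. EcR, the ecdysone receptor gene, fell from 49909 ± 11518 to 23568 ± 3777 normalized counts (log2 difference -1.07, adjusted p = 0.031, limma), and Eip74EF fell by 0.82 on the log2 scale (adjusted p = 0.037). The other 2 were br and ftz-f1, given above. Of 7 tested genes of ecdysone synthesis and its control, 2 passed as lower, the synthesis gene sro and the sterol transporter gene Npc1a, with log2 differences of -1.08 and -0.45 (adjusted p = 0.031 and 0.040). In mCherryRNAi replicate 1 EcR was at 36815 against 54434 and 58477 in the other controls, and sro at 3833 against 6112 and 6077.

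The position of mCherryRNAi replicate 1 was set out for the 7 genes and for some of the ecdysone response genes. Relative to the mean of the other controls, its log2 value was -5.20 for Eip78C, -4.36 for Hr4, -1.50 for Eip75B, -1.40 for br and -0.62 for EcR, toward the tmodRNAi values in each case. Not all genes of that list did so, as usp, which encodes the partner of EcR, was at 5675 against 5655 and 5874. For the juvenile hormone genes the same difference was -0.06 for Kr-h1, 0.01 for Met, 0.18 for gce, -0.28 for Jhe, 0.05 for Jheh1, 0.03 for Jheh2 and 1.17 for Jheh3. The median size of this difference without its sign was 0.29 over all tested genes and 0.41 over the genes past the threshold. Kr-h1, Met, gce, Jheh1 and Jheh2 thus lay below both medians, Jhe close to the first, and Jheh3 far above them. This describes 1 library and was not tested, and Eip78C, Hr4, Eip75B and usp were named after their values were seen.

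**Figure D5:**
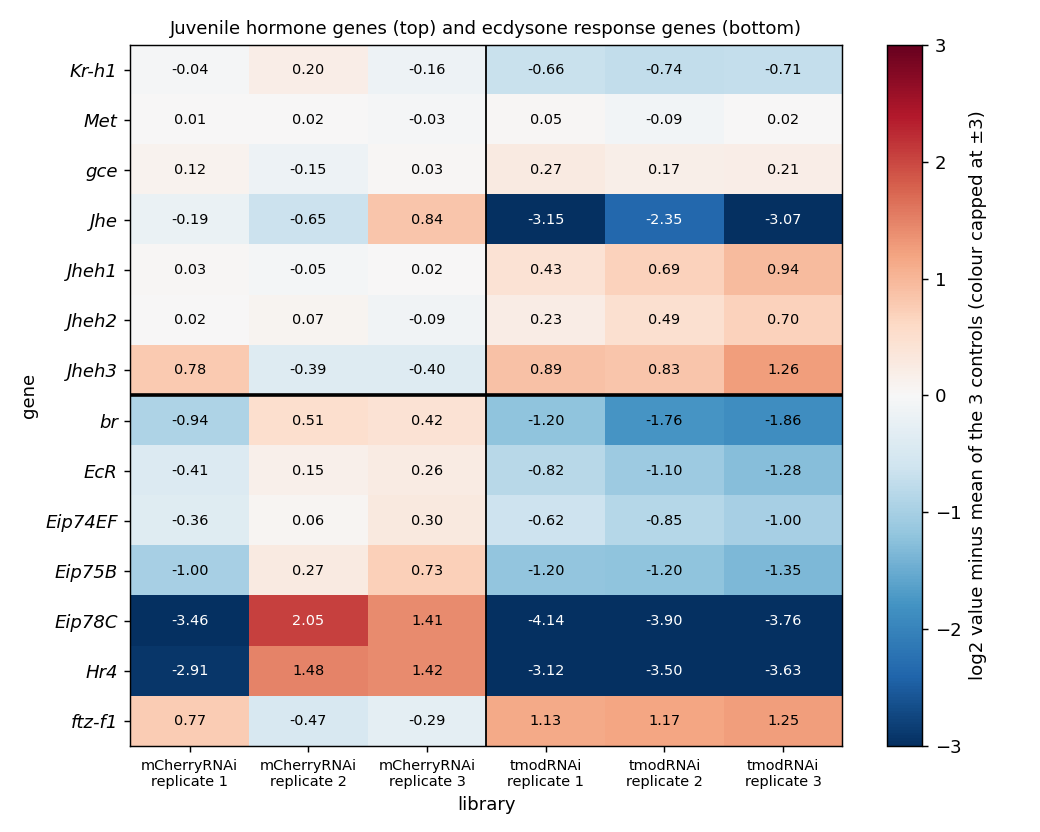
Log2 value of each gene in each library minus the mean of the 3 controls (printed in each cell; colour is capped at 3 in either direction), for the juvenile hormone genes above the line and ecdysone response genes below it. In mCherryRNAi replicate 1, Eip78C and Hr4 are at -3.46 and -2.91, near the tmodRNAi libraries, while Kr-h1, Jheh1 and Jheh2 are within 0.04 of the control mean.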

How the data were processed

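The authors deposited 1 table of normalized counts, a signal that is never negative: per the submitters' processing notes DESeq2 1.30.1 and the dm6 build were used. The aligner, counting tool, annotation and strand setting are not given in the sources used here. Dividing a library's column by its smallest step gave whole numbers for 100% of values (within 0.01), which were taken as reads. The 10969 genes averaging 10 or more normalized counts were tested as log2(value + 1) with limma 3.58.1 (trended prior, no block) in R 4.3.3, adjusted over all tested genes by the Benjamini-Hochberg method at 0.05. The fit across all genes was tested on simulated data. Of 200 genes changed there by 2 on the log2 scale, limma called 157, and it made 13 other calls. Smaller changes, such as those of every member but Jhe, were not simulated. edgeR 4.0.16 and DESeq2 1.42.0 were run on the recovered reads. The labels number biological replicates without saying whether they came from separate crosses, so p-values measure the spread between these samples. Gene lists, members and tests were chosen with earlier results of these data known. Named genes are the members, up to 4 genes per list past the threshold, jhamt, the 3 nearest patterns per member, annotated neighbours and tmod, except where stated. Positions and exonic lengths are from Ensembl BDGP6.54, which holds 17710 of the 17807 identifiers.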

Additional observations from a re-analysis of the deposited data

How the results depend on the processing

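The differences of Kr-h1, gce, Jhe and the 3 hydrolase genes kept their direction under every alternative in which they were tested (Jhe was not tested at a mean of at least 50), while Met changed sign with quantile normalization (0.045), in edgeR (0.0135 on the log2 scale) and without mCherryRNAi replicate 2 or tmodRNAi replicate 2. With 1 library left out at a time, the log2 difference ranged from -0.78 to -0.60 for Kr-h1, -0.034 to 0.034 for Met, 0.14 to 0.28 for gce, -3.18 to -2.44 for Jhe, 0.56 to 0.82 for Jheh1, 0.36 to 0.59 for Jheh2, 0.79 to 1.38 for Jheh3 and 0.54 to 0.81 for the summed hydrolases. The number of members past the threshold ranged from 0 to 6 and that of all genes from 0 to 5203, both highest without mCherryRNAi replicate 1. In limma without the trend 2 members (Kr-h1 and Jhe) and 954 genes passed, with Jheh1 at 0.69 (adjusted p = 0.051) and Jheh2 at 0.47 (0.072). Jheh2, at 0.47, also failed without a filter (0.054). In DESeq2, 4364 genes passed, as did Jheh3 (0.90). At an adjusted p under 0.01, 0 members and 2 genes passed. Median centring lowered the share of calls that were higher from 45.7% to 36.1%. With the replicate number as a block, 0 members and 0 genes passed (limma, 3969 genes at an unadjusted p under 0.05): Kr-h1 -0.70, Jhe -2.86 (adjusted p = 0.096 each), Jheh1 0.69 (0.096) and Jheh2 0.47 (0.11). The deviations of same-numbered libraries correlated at -0.057, 0.023 and -0.018, and those of libraries with different numbers at between -0.077 and 0.096. These correlations cannot show whether the replicates were paired. Other causes were not tested. Depth limits the genes with few reads, among them Jhe, Jhedup, jhamt, AstC, CG30095 and asRNA:CR44961.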
